A study of Mus musculus with 8 samples.

Results

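Dense G9a bins are 100 kb stretches of the mouse genome in which G9a was called at 8 or more separate places in wild-type cells. Chromosomes 1 to 19 of the mm9 build were divided into 24731 bins of 100 kb from their first base, each peak was given to the bin that holds its midpoint, and 2439 bins (9.86%) met the rule. The other 22292 bins of the same chromosomes are the background throughout. Because the bins were chosen on the wild-type G9a list, the number, covered length, spacing and score of its peaks are given as a description and carry no test.

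G9a and its partner GLP are histone methyltransferases that work as a pair and place methyl groups on lysine 9 of histone H3, a mark that often extends over long stretches of silent chromatin. Ezh2 is the enzyme of Polycomb repressive complex 2 (PRC2), places methyl groups on lysine 27 of that histone and is known for its hold on developmental genes in embryonic stem cells. A ChIP-seq peak marks a place where DNA bound to the protein was enriched over a control, so many peaks in one stretch mean many separate places called, not a broad mark as such.

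All libraries came from TT2 cells, a mouse embryonic stem cell line derived from a cross of a C57BL/6 female and a CBA male and grown in serum with LIF. G9a was profiled in wild-type TT2 cells (1 library) and in cells null for both G9a and GLP that had been given back wild-type G9a (1 library, called the rescue), which by their label still lacked GLP. Ezh2 was profiled in wild-type TT2 cells (2 libraries, numbered 0 and 1) and in cells null for both G9a and GLP (1 library). In the titles both G9a libraries carry the number 1 and the knockout Ezh2 library the number 0. What these numbers stand for is not known here. The labels do not say whether the knockout or rescue cells are a single clone, nor that both Ezh2 libraries of the wild type are from different cultures, and peak lists hold no expression by which the cell type or the knockout could be checked. The G9a samples alone were crosslinked with 2 mM DSG for 45 min before formaldehyde, so G9a and Ezh2 lists differ in fixation as well as in antibody.

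On chromosomes 1 to 19 the lists held 67077 wild-type G9a, 83433 rescue G9a, 5342 and 11593 wild-type Ezh2 (libraries 0 and 1) and 6174 knockout Ezh2 peaks. The depth of the libraries is unknown, since the lists carry no read counts. Chromosomes 1 and 8 stood apart: they make up 7.97% and 5.33% of the bins but held 12.3% and 7.73% of wild-type G9a peaks and 2.71% and 1.62% of rescue G9a peaks. Of the Ezh2 peaks, chromosome 1 held 7.53% in library 0, 9.63% in library 1 and 5.49% in the knockout, and chromosome 8 held 5.93%, 7.23% and 8.33%. Rescue values are therefore given for chromosomes 1 and 8 apart from the other autosomes. With 1 library in each group except wild-type Ezh2, no difference between conditions could be tested.

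Dense bins were found on every autosome, but most often on chromosomes 11, 1 and 8. Their share of a chromosome's bins was 18.95% on chromosome 11 (231 bins), 17.2% on chromosome 1 (340) and 15.2% on chromosome 8 (200). Among the autosomes other than 1 and 8, chromosome 3 had the lowest share at 6.14% and the median was 8.41%. Along the chromosomes they were least frequent at the centromeric end, where mm9 coordinates start, and most frequent at the other end. Dense bins made up 4.49% of bins in the first 10% of chromosome length and 15.1% in the last 10%, with 7.52% to 14.3% between. The rise was uneven, with 10.9% in part 4 of these 10 and 8.13% in part 6. Bins without known sequence were not left out, here or in the background, so the low share at the start was not corrected for them. Of 240 full blocks of 10 Mb, the median held 8 dense bins and 14 held none. The richest block, chosen after its value was seen, started at 130 Mb on chromosome 1 and held 39 dense bins among its 100.

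**Figure D1:**
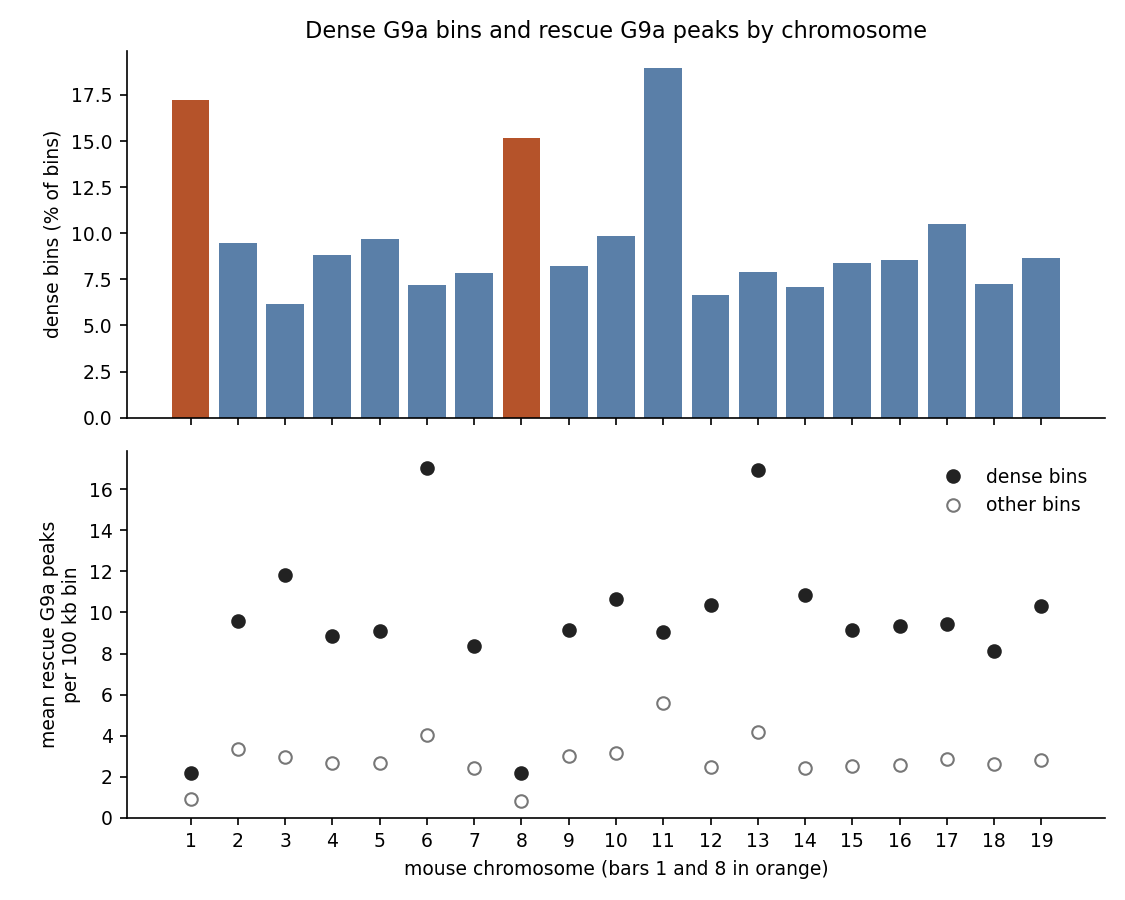
The upper bars give the share of each chromosome's 100 kb bins that were dense in the wild-type G9a list (percent), with chromosomes 1 and 8 in orange. The lower points give mean rescue G9a peaks per bin, filled for dense and open for other bins; dense bins lie above other bins on all 19 chromosomes, and both kinds are lowest on chromosomes 1 and 8 (2.21 and 2.21 in dense bins).

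Dense bins were often neighbours. Of the 2439, 1310 (53.7%) had a dense bin directly beside them, against 13.2% of the other bins. They formed 1631 runs, of which 1129 were lone bins, 502 had 2 or more and the longest had 12. That run lay on chromosome 1 from 134600001 to 135800000 and held 140 wild-type G9a peaks, 8 to 18 in each bin. The same 1200 kb held 13 rescue G9a peaks, 3 and 16 wild-type Ezh2 peaks (libraries 0 and 1) and 1 knockout Ezh2 peak. In it, 11 of the 140 wild-type peaks overlapped a rescue peak, and over all wild-type peaks of chromosome 1 the share was 12.2%.

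Of 5 runs of 8 bins, the 4 with most wild-type G9a peaks were read next. The run on chromosome 13 from 98000001 to 98800000 held 125 wild-type and 165 rescue G9a peaks, and 66 of the wild-type peaks overlapped a rescue peak. On chromosome 9 from 60800001 to 61600000 there were 105 wild-type and 59 rescue peaks, with 34 overlapping. The run on chromosome 11 from 88300001 to 89100000 had 102 and 84, with 44 overlapping. Another chromosome 1 run, from 90300001 to 91100000, had 99 and 25, with 20 overlapping. Over all wild-type peaks, 36.8% on the autosomes other than 1 and 8 and 12.2% on chromosome 1 overlapped a rescue peak. The rescue count exceeded the wild-type count in the chromosome 13 run alone and was far below it in both chromosome 1 runs. Chromosome 1 as a whole held 2262 rescue and 8226 wild-type peaks. In these 4 runs Ezh2 had 0 or 1 peak in library 0, 1 to 8 in library 1 and 0 to 2 in the knockout.

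Within a dense bin the wild-type G9a list held a median of 10 peaks (lower and upper quartiles 9 and 13, highest 34). Most of these bins (1382, 56.7%) had 8 to 10 peaks, and 100 had 20 or more. The peaks of a dense bin covered a median of 8753 bp of its 100 kb, with a range of 3356 to 64332 bp. In the other bins the median was 528.5 bp. Dense bins held 40.7% of all autosomal wild-type peaks and 25.4 of the 53.5 Mb they cover.

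Peaks in dense bins were also wider and scored higher at the median. The score, given by the authors' peak caller and which MACS defines as −10 × log10 of the p it gives a peak, had a median of 35.3 in dense bins and 29.9 elsewhere. Median widths were 716 and 564 bp. Of the 6708 peaks in the top 10% by score, 53.9% lay in dense bins, against 40.7% of all autosomal wild-type peaks. The highest score of the list, 3100, lay outside dense bins, whose highest was 1905.76. The median distance to the previous peak of the same bin was 2921 bp, and 30.8% of these distances were under 1 kb, against 16.8% in other bins. When peaks closer than 1 kb were merged before counting, 1320 bins reached the limit of 8. When only peaks with scores of at least 50 were counted, 186 did. The 596 bins with exactly 8 peaks, just inside the rule, had a median covered length of 5986.5 bp and a median score of 32.2. The 744 bins with 7, just outside, had 5134.5 bp and 31.8.

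The densest bin lay on chromosome 3 from 34600001 to 34700000, with 34 wild-type G9a peaks over 37817 bp. It held 22 rescue G9a peaks and no Ezh2 peak in any of the 3 Ezh2 lists. On chromosome 7 from 148100001 to 148200000 there were 33 wild-type and 23 rescue G9a peaks. That bin also held 1 and 2 wild-type Ezh2 peaks (libraries 0 and 1) and 2 in the knockout, and was the bin with most wild-type G9a peaks among those with Ezh2 in all 3 lists. The bin on chromosome 10 from 44100001 to 44200000 had 32 wild-type and 24 rescue G9a peaks, and 1 Ezh2 peak in library 1. In each of these bins 15 of the wild-type peaks overlapped a rescue peak, against 36.8% of all wild-type peaks on the autosomes other than 1 and 8.

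The others of the 10 densest had 28 to 31 wild-type peaks. The bin on chromosome 6 from 100300001 to 100400000 had 31 wild-type peaks and 48 in the rescue, the highest rescue count of the 10. Next were chromosome 10 from 76600001 to 76700000 (30 wild-type and 16 rescue peaks), chromosome 4 from 117000001 to 117100000 (29 and 15) and chromosome 5 from 53800001 to 53900000 (29 and 21). Those with 28 wild-type peaks lay on chromosome 19 from 53500001 to 53600000 (20 rescue peaks), chromosome 12 from 12800001 to 12900000 (18) and chromosome 16 from 22400001 to 22500000 (8). None of the 10 was on chromosome 1 or 8, whose densest bins had 24 and 23 wild-type peaks. Wild-type peaks in the 10 bins covered 22281 to 39852 bp and had median scores of 35.09 to 68.39.

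The highest-scoring wild-type peaks inside dense bins lay outside the 10 densest. The first, on chromosome 10 from 41326327 to 41330149 (3823 bp, score 1905.76), was in a bin with 11 wild-type peaks. It was followed by chromosome 12 from 88271015 to 88275026 (1791.89, bin of 26), chromosome 4 from 83866691 to 83872951 (1660.55, bin of 8) and chromosome 14 from 99753099 to 99755409 (1647.38, bin of 22). The fifth was on chromosome 8 from 70941715 to 70945944 (1645.58, bin of 11). Each of the 5 overlapped 1 to 4 rescue peaks. Overlap was common among all peaks in the top 10% by score. On the autosomes other than 1 and 8 it was 80.97% in dense and 85.3% in other bins. On chromosome 8 it was 44.6% and 49.1%.

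The rescue list, which played no part in choosing the bins, was then read in them. Away from chromosomes 1 and 8, dense bins were rich in rescue G9a too. Over 1899 dense bins the rescue count ranged from 0 to 67 with a median of 9 (quartiles 6 and 13), against a median of 2 (1 and 4) in the 19542 other bins. The means were 10.3 and 3.08 peaks per bin. Set against the other bins of each chromosome, dense bins held 3.16 times as many rescue peaks (19614 against 6207 expected; 95% interval 3.12 to 3.20). This interval is an exact Poisson interval for counting error only. Neighbouring peaks are not independent, so it is narrower than the true uncertainty.

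A rescue count of 8 or more, the same limit as for the wild type, was reached by 1186 of these dense bins (62.5%), against 13.6% of all bins of these chromosomes. At least 1 rescue peak was found in 1877 (98.8%), against 78.1% of all bins. Most of the rest of the genome also holds rescue peaks, so the height of the count distinguished dense bins more than the presence of a peak did. The choice of background changed the ratio: it was 2.30 against other bins with at least 1 wild-type G9a peak, and 1.49 against bins with 6 or 7, an alternative chosen after seeing the data.

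On chromosomes 1 and 8, dense bins held few rescue peaks, yet on average still more than the other bins of the same chromosome. On chromosome 1 the 340 dense bins had 0 to 17 rescue peaks (median 2, mean 2.21), and other bins had a mean of 0.926. The ratio was 2.38 (95% interval 2.21 to 2.56). A rescue peak was present in 80.6% of these dense bins, against 57.4% of all bins of chromosome 1. On chromosome 8 the 200 dense bins had 0 to 9 (median 2, mean 2.21), other bins 0.817, and the ratio was 2.70 (2.45 to 2.96), with a rescue peak in 83.5% of dense bins against 54.2% of all bins of chromosome 8. Rescue counts of 8 or more were seen in 7 dense bins of chromosome 1 (2.06%, against 0.456% of its bins) and 1 of chromosome 8 (0.500%, against 0.0759%). The wild-type list differed on these chromosomes as well. Their other bins had means of 2.76 and 2.71 wild-type peaks on chromosomes 1 and 8, against 1.65 on the other autosomes, and the median covered length of their dense bins was 10494 and 10964 bp, against 8145 bp.

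The densest bins of chromosomes 1 and 8 show this, and were chosen after their values were seen. On chromosome 1 the bin from 72800001 to 72900000 had 24 wild-type G9a peaks beside 3 of the rescue, and the bin from 121200001 to 121300000 had 23 and 1. The latter had the greatest covered length of any dense bin, 64332 bp in the wild type, against 2038 bp in the rescue. On chromosome 8 the bin from 109100001 to 109200000 had 23 and 5, and the bin from 37600001 to 37700000 had 22 and 4. On all 19 autosomes the mean rescue count was higher in dense than in other bins, with ratios from 1.62 on chromosome 11 to 4.49 on chromosome 14.

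Mean rescue counts were higher in bins with more wild-type peaks, both below and above the limit of 8. On the autosomes other than 1 and 8 the mean rose from 1.20 rescue peaks in bins with no wild-type peak to 7.22 at 7 wild-type peaks and 7.98 at 8. It was 9.27 at 10 to 11, 13.9 at 15 to 19 and 19.2 in the 86 bins with 20 or more. The mean thus showed no step at the limit. On chromosome 1 the rise was not even: the mean was 1.62 at 7, 1.93 at 8, 1.57 at 9, 2.05 at 10 to 11 and 4.80 in the 10 bins with 20 or more, and on chromosome 8 it was 1.55, 1.75 and 4.75 (4 bins).

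**Figure D2:**
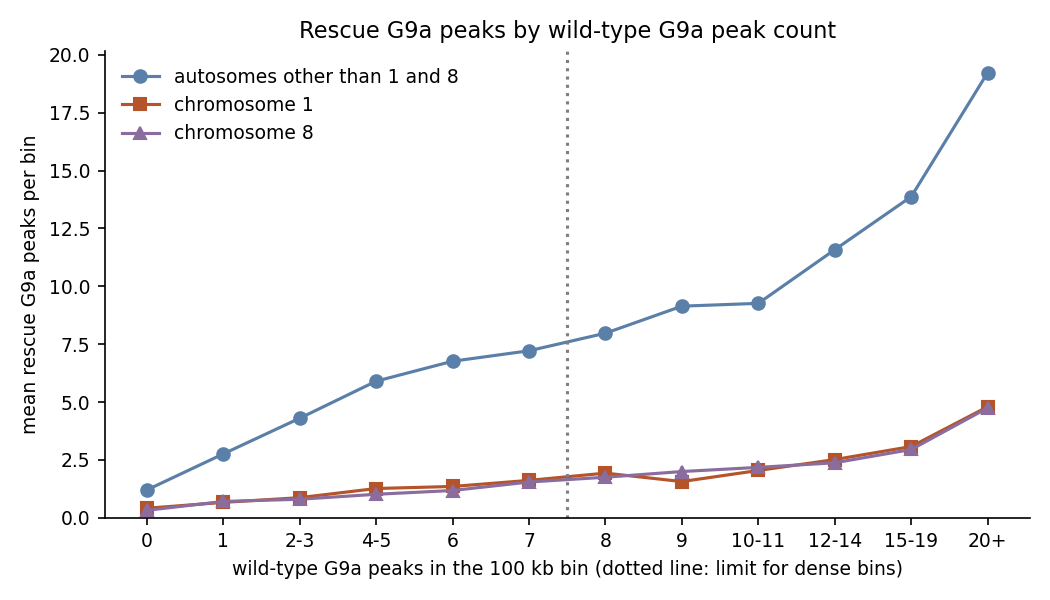
Mean rescue G9a peaks per 100 kb bin (vertical) against wild-type G9a peaks in the bin (horizontal, in classes), for chromosome 1, chromosome 8 and the other autosomes; bins right of the dotted line are dense. On the other autosomes the mean goes from 1.20 at 0 wild-type peaks to 19.2 at 20 or more, and on chromosomes 1 and 8 it stays below 5.

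Counts of both G9a lists fell off around the dense bins within the 2000 kb on either side. Bins at each distance were counted whether or not they were dense themselves. On the autosomes other than 1 and 8 the rescue mean was 10.3 in the dense bin, 7.30 and 7.40 in the bins directly before and after, and 4.71 and 4.99 at 1000 kb. Wild-type means were 11.3 in the bin, 6.31 on either side, and 3.63 and 3.62 at 1000 kb. At 2000 kb the rescue means of 4.30 and 4.53 were still above the mean of 3.08 over all other bins.

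Local rescue excess and deficit also touched dense bins. The 5 dense bins with most rescue peaks all lay on chromosome 13 between 112700001 and 114000000, with 63 to 67 rescue peaks each. The first, from 112900001 to 113000000, had 67 rescue and 8 wild-type peaks, and rescue peaks covered 56478 bp of it against 5147 bp for the wild type. The 13 dense bins of the 10 Mb block from 110 Mb on chromosome 13 had a mean of 53.8 rescue peaks, against 11.1 in the other 82 of that chromosome. The 22 dense bins of the block from 120 Mb on chromosome 6 had 33.5, against 12.9 in the other 86. Other bins of these blocks were raised as well, at 16.2 and 22.3. Outside both blocks, the most rescue peaks in a dense bin were 53, on chromosome 6 from 100200001 to 100300000, beside the bin with 31 wild-type peaks named above.

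At the end of chromosome 11 the reverse was seen. Its 29 dense bins from 110 Mb had a mean of 10.6 wild-type and 1.21 rescue peaks, and 13 of them had no rescue peak. The 202 dense bins before that point had 10.7 and 10.2. The deficit was not particular to dense bins. Rescue means of other bins were 0.756 in the 90 from 110 Mb and 6.07 in the 898 before it. Dense to other ratios were close in both stretches, 1.60 and 1.68. Leaving out these 3 stretches, a choice made after seeing the data, changed the ratio for the autosomes other than 1 and 8 from 3.16 to 3.12.

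On all autosomes together 2318 dense bins (95.0%, against 75.1% of all bins) had a rescue peak, and 1194 (48.95%, against 11.9%) had 8 or more. No rescue peak was called in 121, 66 on chromosome 1, 33 on chromosome 8 and 22 elsewhere. Of those 22, 15 were on chromosome 11. The highest wild-type count among the 22 was on chromosome 5 from 118700001 to 118800000, with 18 wild-type peaks over 13275 bp and 2 Ezh2 peaks of library 1. The next 4 had 11 wild-type peaks each. They were on chromosome 11 from 117700001 to 117800000, from 113600001 to 113700000 and from 114700001 to 114800000, and on chromosome 6 from 122400001 to 122500000, inside the stretch where rescue peaks were otherwise in excess.

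Individual sites were compared next, as a dense bin can be dense in both lists without sharing peaks. Of the 21448 wild-type peaks in dense bins away from chromosomes 1 and 8, 8501 (39.6%; exact binomial 95% interval 39.0 to 40.3, counting error only) overlapped a rescue peak by at least 1 bp. The share was 35.0% in other bins and 36.8% over all these peaks. On chromosome 1 it was 13.7% in dense and 10.9% in other bins (12.2% over all), and on chromosome 8 13.9% and 10.99% (12.2% over all). Over all autosomes it was 34.1% in dense bins, against 31.9% of all wild-type peaks. Rescue peaks covered 6.91% of the dense bins and 1.60% of the others away from chromosomes 1 and 8, and the part of this in the shares was not tested. From the rescue side, 46.1% of rescue peaks in dense bins overlapped a wild-type peak, against 19.9% in other bins, where wild-type peaks are fewer by the rule.

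Within classes of like score the difference between dense and other bins changed direction. Wild-type peaks of the autosomes other than 1 and 8 were split by score into 10 classes of equal size. In class 2, counted from the lowest, 22.2% of peaks in dense bins and 15.8% in others overlapped a rescue peak, and in class 5 27.5% and 27.2%. In class 8 the shares were 45.1% and 51.2%, and in class 10 80.97% and 85.3%. Peaks in dense bins were thus found more often in the rescue in the 5 lower classes and less often in the 5 upper ones. On chromosomes 1 and 8 the top classes also had lower shares in dense bins, 43.8% against 53.5% and 44.6% against 49.1%. These differences were not tested.

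**Figure D3:**
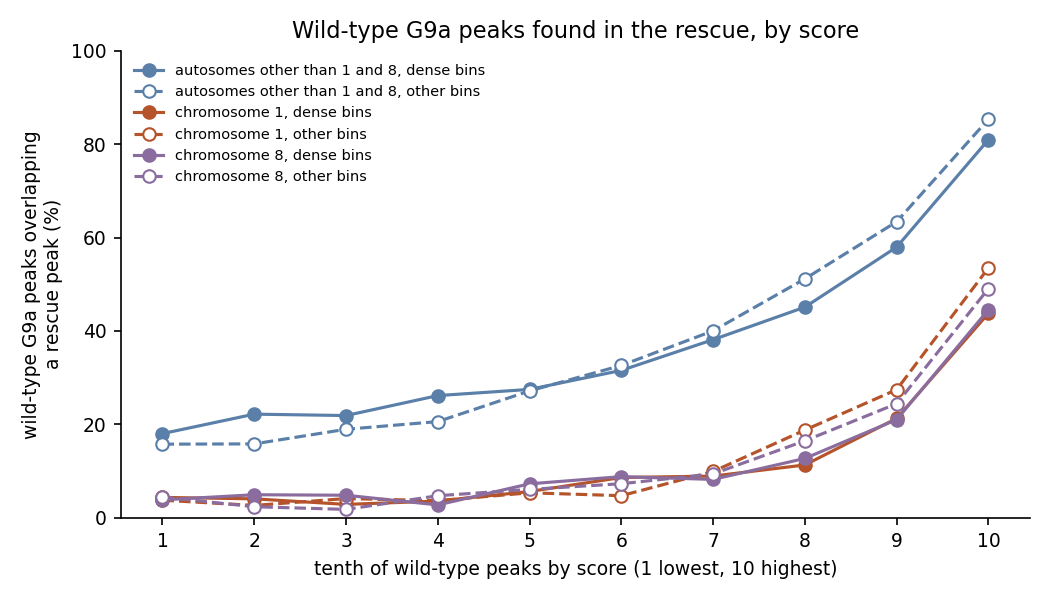
Share of wild-type G9a peaks that overlap a rescue peak (percent, vertical) by score class (10 of equal size) within each set of chromosomes (horizontal), with filled points for dense bins and open points for other bins. On the autosomes other than 1 and 8 the top class reaches 80.97% in dense and 85.3% in other bins, and on chromosomes 1 and 8 no point exceeds 53.5%.

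Ezh2 peaks were then counted in the dense bins for each Ezh2 library. An Ezh2 peak of library 1 was found in 1024 of the 2439 dense bins (42.0%, against 23.4% of all bins). For library 0 the count was 353 (14.5%, against 9.12%), and for the knockout 434 (17.8%, against 11.7%). Both wild-type libraries had a peak in 314 dense bins (12.9%; exact binomial 95% interval 11.6 to 14.3), against 7.98% of all bins. No Ezh2 peak of any list was found in 1275 (52.3%) of the dense bins, against 72.2% of all bins.

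Compared with other bins of the same chromosomes, dense bins held 1.96 times as many Ezh2 peaks in library 1 (2199 peaks; 95% interval 1.87 to 2.04, exact Poisson), 1.44 times in library 0 (753; 1.34 to 1.55) and 1.37 times in the knockout (867; 1.28 to 1.46). Library 1 was higher in dense bins on all 19 chromosomes, library 0 on 15 and the knockout on 17. The spread between the wild-type libraries, 1.44 to 1.96, was larger than the difference of the knockout from library 0. On the autosomes other than 1 and 8 the ratios were 1.29, 1.96 and 1.26 for library 0, library 1 and the knockout. They were 2.09, 2.01 and 2.09 on chromosome 1 and 2.05, 1.83 and 1.65 on chromosome 8.

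These ratios depended on the bins set against the dense ones. Against other bins with at least 1 wild-type G9a peak, they were 1.09, 1.45 and 1.04 for library 0, library 1 and the knockout. Among the densest 2% of bins of each chromosome, library 0 and the knockout fell below their background, at 0.883 and 0.844, while library 1 stayed above it at 1.57. Shifting all bins by 50 kb gave 1.17, 1.67 and 1.19. Of 10 alternatives in all, library 0 fell below its background in 2 and the knockout in 3. For library 0 and the knockout, the direction in dense bins as a whole was not that in the densest of them.

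The share of bins with Ezh2 was highest at middle values of the number of wild-type G9a peaks. An Ezh2 peak of library 0 was present in 3.13% of bins with no wild-type G9a peak, 16.7% of those with 7, 17.1% of those with 8 and 15.7% at 10 to 11. Past that the share fell, to 13.9% at 12 to 14, 9.75% at 15 to 19 and 4.00% at 20 or more. The knockout went from 4.13% through 22.6% at 7 to 7% at 20 or more. Library 1 went from 7.07% through 47.0% at 10 to 11 to 26.0%. All 3 Ezh2 lists thus had their lowest share of the dense range in the 100 bins with 20 or more G9a peaks, of which 4, 26 and 7 held a peak of library 0, library 1 and the knockout and 69 held none. Over all bins of chromosomes 1 to 19 the shares were 9.12%, 23.4% and 11.7%, and 72.2% held none. The 10 bins with 20 or more on chromosome 1 were an exception for library 1, which had a peak in 50.0% of them. Of the 100 bins, 83 had 8 or more rescue G9a peaks, against 11.9% of all bins. On the autosomes other than 1 and 8 this share was 94.2% of 86 bins, against 13.6% of all bins there. On chromosome 1 it was 10% of 10 bins (0.456% of all its bins) and on chromosome 8 25% of 4 (0.0759%).

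**Figure D4:**
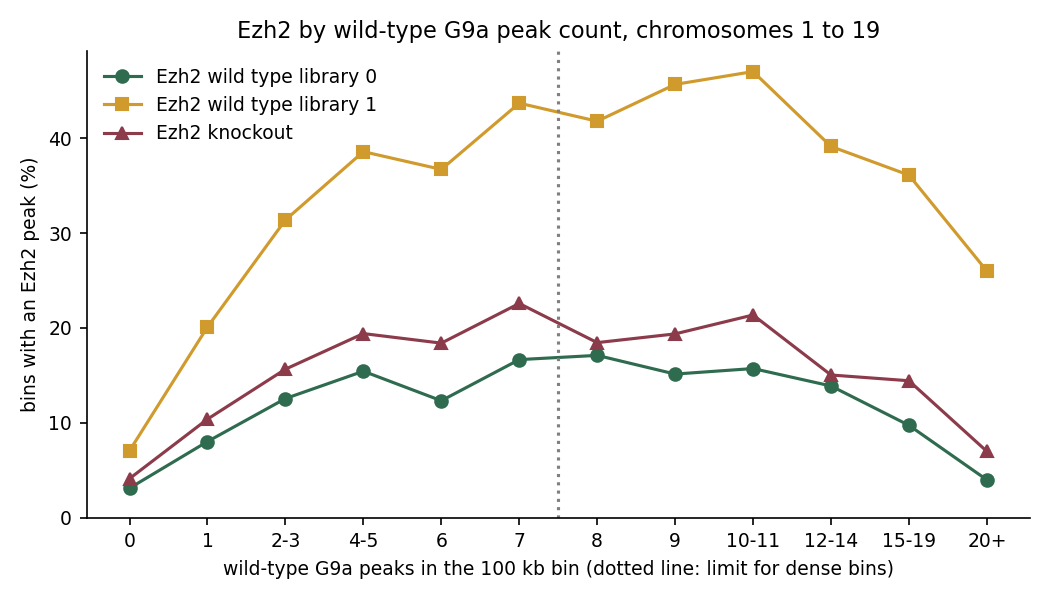
Share of 100 kb bins of chromosomes 1 to 19 with at least 1 Ezh2 peak (percent, vertical) by wild-type G9a peaks in the bin (horizontal, in classes), 1 line per Ezh2 library; bins right of the dotted line are dense. All 3 lines are highest between 7 and 11 G9a peaks and lower beyond, at 4.00% (library 0), 26.0% (library 1) and 7% (knockout) at 20 or more.

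The surroundings of dense bins were much like the bins themselves for Ezh2. Here too the surrounding bins include other dense bins, and 53.7% of dense bins had a dense neighbour. On the autosomes other than 1 and 8, library 0 had means of 0.288 peaks in the dense bin and 0.288 and 0.309 in the bins before and after it. The knockout had 0.341 in the bin and 0.363 and 0.366 beside it. Library 1 had 0.876 in the bin and 0.723 and 0.732 beside it. On these autosomes a local maximum at the dense bin was thus seen in library 1 alone. Library 1 carries the same number in its title as both G9a libraries, and whether this plays a part was not tested. On chromosomes 1 and 8 the dense bin was above both neighbours in all 3 lists, for library 0 at 0.359 against 0.285 and 0.347 on chromosome 1 and 0.425 against 0.370 and 0.295 on chromosome 8. Some margins were small: the knockout had 0.303 against 0.274 and 0.300 on chromosome 1 and 0.585 against 0.570 and 0.425 on chromosome 8. Some bins farther away were higher. The knockout had 0.318 at 500 kb before on chromosome 1, and library 0 had 0.467 at 1100 kb after on chromosome 8. At 1000 kb on the autosomes other than 1 and 8, the library 0 means, 0.313 and 0.334, were still above its mean of 0.209 over other bins.

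**Figure D5:**
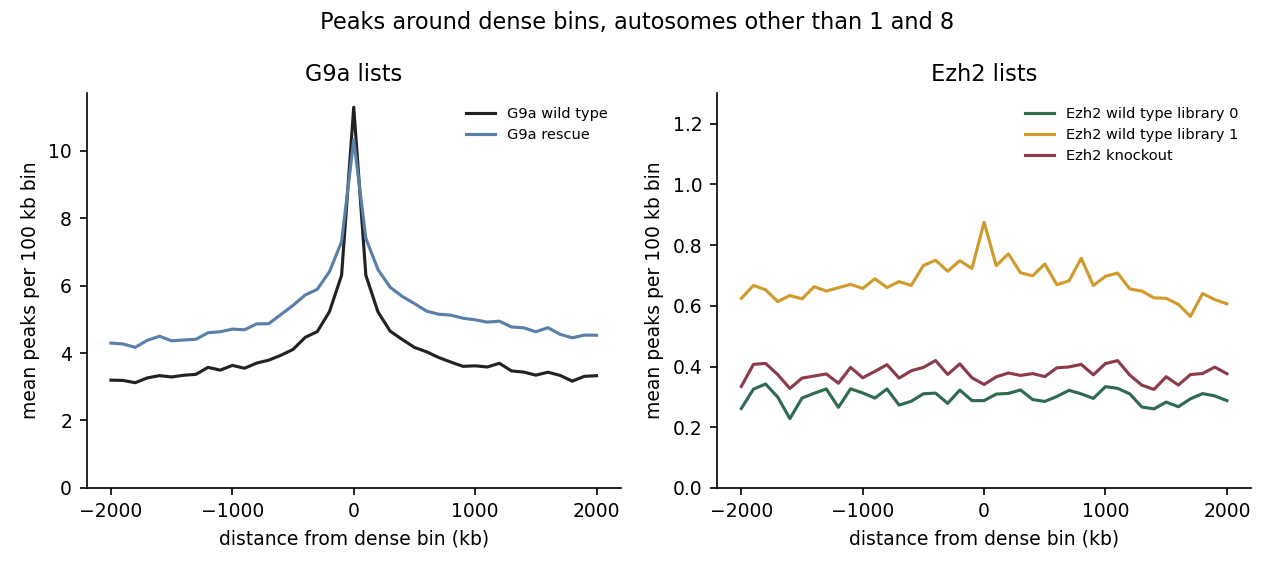
Mean peaks per 100 kb bin (vertical) by distance from dense bins in kb (horizontal), on the autosomes other than 1 and 8; the left panel shows the G9a lists, the right panel the Ezh2 lists. Bins away from distance 0 are counted whether or not they are dense themselves. Rescue G9a reaches 10.3 at distance 0 and 7.40 in the next bin, library 1 Ezh2 has a small peak of 0.876 at distance 0, and the other Ezh2 lists have none.

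Overlap of single peaks followed the same order of libraries. In dense bins, 550 of 2199 library 1 Ezh2 peaks (25.01%, against 14.4% of all library 1 peaks) overlapped a wild-type G9a peak. For library 0 there were 73 of 753 (9.69%, against 5.9%), and for the knockout 77 of 867 (8.88%, against 5.33%). Wild-type G9a peaks cover 10.4% of the dense bins and 1.26% of the others, by the rule. Median widths of Ezh2 peaks in dense bins had the same order, 709 bp in library 1, 479 in library 0 and 360 in the knockout. The part of peak width in these shares was not tested. Median Ezh2 scores on the autosomes other than 1 and 8 were 80.7 in dense and 89.3 in other bins for library 0, 52.1 and 65.8 for library 1, and 55.95 and 60.04 for the knockout. On chromosome 1 dense bins had the higher median in library 0 (93.9 and 74.2) and library 1 (48.3 and 41.7) and the lower in the knockout (56.8 and 57.6). On chromosome 8 they had the higher in all 3 lists, at 68.7 and 66.1, 50.3 and 45.6, and 55.6 and 54.9.

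The dense bins with most wild-type G9a peaks and Ezh2 in all 3 lists, after the chromosome 7 bin named above, had 18 to 20 G9a peaks. The bin on chromosome 17 from 35600001 to 35700000 had 20 wild-type and 15 rescue G9a peaks and 1 Ezh2 peak in each list. On chromosome 2 from 93700001 to 93800000 there were 19 and 6 G9a peaks, 4 and 1 wild-type Ezh2 peaks (libraries 0 and 1) and 3 in the knockout. The bin on chromosome 8 from 12400001 to 12500000 had 18 and 6 G9a peaks, 4 and 4 wild-type Ezh2 peaks and 3 in the knockout. On chromosome 5 from 137500001 to 137600000 there were 18 and 9 G9a peaks, 1 and 3 wild-type Ezh2 peaks and 1 in the knockout. The 3 dense bins with most library 0 Ezh2 peaks, chosen after their values were seen, had 8 to 10 G9a peaks. In the first, on chromosome 13 from 40800001 to 40900000, Ezh2 had 18, 15 and 22 peaks in library 0, library 1 and the knockout beside 8 wild-type and 5 rescue G9a peaks.

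Whether Ezh2 sites of dense bins were still called in cells without G9a and GLP was read from merged Ezh2 regions. Of 404 regions in dense bins that held peaks of both wild-type libraries, 230 (56.9%; exact binomial 95% interval 51.9 to 61.8) held a knockout peak. In other bins it was 1413 of 2188 (64.6%; 62.5 to 66.6), and over all 2592 autosomal regions 63.4%. On the autosomes other than 1 and 8 the shares were 56.1% of 301 and 64.9% of 1953. Chromosome 1 went the other way, with 54.5% of 66 regions in dense bins (41.8 to 66.9) and 51.2% of 127 in others (42.2 to 60.1), and chromosome 8 had 67.6% of 37 (50.2 to 82.0) and 75% of 108 (65.7 to 82.8). The intervals cover counting error only, regions of the same bin are not independent, and with 1 knockout library the difference was not tested. A wild-type G9a peak lay in 94 (23.3%) of the 404 regions and in 329 (15.0%) of the 2188, where such peaks are fewer by the rule.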

How the data were processed

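Peak lists of 5 ChIP-seq libraries were used, and 3 input libraries were not analysed here. Bowtie 0.12.7, MACS 1.4 and mm9 are named in the submitters' processing notes, and per the series' design text both wild-type inputs, pooled, served as the ChIP control; the text does not say whether this holds for the rescue and knockout lists. The deposited score of each peak is the authors' own and was used only within its list. No source used here gives the threshold of the calls. Scores began at 20 in both G9a lists, 43.02 and 30 in wild-type Ezh2 (libraries 0 and 1) and 43.03 in the knockout.

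Cells were fixed with 1% formaldehyde for 10 min and libraries amplified with 15 PCR cycles, per the labels' protocols. Groups follow the sample titles. For the knockout Ezh2 library the title names the knockout while the source name gives the line alone.

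Bins, ratios (peaks in dense bins over the number expected from the other bins of each chromosome) and overlaps of at least 1 bp were computed with Python 3.11.15, numpy 2.4.6, pandas 2.3.3 and scipy 1.17.1. Figures used matplotlib 3.10.9, and mm9 chromosome lengths came from GenomeInfoDb 1.38.1. Covered length is the summed width of the peaks given to a bin. The procedures were tested on simulated data. Positions are 1-based.

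The bins, alternatives and naming rule were chosen with earlier results of these data known. Regions named are the 10 bins with most wild-type peaks, the 5 longest runs, the 5 bins with most rescue peaks, the first 5 with none outside chromosomes 1 and 8, the first 5 with Ezh2 in all lists, and the 5 highest-scoring peaks. No mm9 genome or annotation was used here, so no gene is named and no sequence printed. Alternatives varied the limit, bin size and start, score minimum, background bins, list length and overlap, and 2 of them (without 3 blocks of chromosomes 6, 11 and 13, and against bins with 6 or 7 wild-type peaks) were chosen after seeing the data.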

Additional observations from a re-analysis of the deposited data

Results flagged for a closer look

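Chromosome X lies outside the rule's chromosomes but carried G9a signal: the wild-type list had 239 peaks there and the rescue list 286, over 1667 bins of 100 kb. No bin of chromosome X reached 8 wild-type peaks, and the highest had 6. The mean was 0.143 wild-type peaks per bin, against 2.71 on the autosomes.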

How the results depend on the processing

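Rescue ratios stayed above 1 in every alternative run, as did Ezh2 library 1, while library 0 and the knockout turned below 1 in some. Values are given in the order other autosomes, chromosome 1, chromosome 8 for rescue, and library 0, library 1, knockout for Ezh2. The cause was not tested. The number of dense bins was 4172 at a limit of 6 peaks, 1394 at 10, 6137 with 50 kb bins and a limit of 4, 940 with 200 kb bins and 16, 1320 with peaks within 1 kb merged, 186 with scores of at least 50 and 566 for the densest 2% of each chromosome.

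The rescue ratio was 2.98 on the other autosomes at a limit of 6 and 3.34 at 10. It was 3.44 and 2.87 (chromosome 1) with 50 kb bins, 2.81, 1.80 and 2.13 with 200 kb bins, and 3.24 and 2.15 (chromosome 1) with merged peaks. It was 6.94, 5.90 and 3.56 with scores of at least 50 and 4.15, 3.16 and 3.01 for the densest 2%. It was 2.30, 2.14 and 2.35 against bins with at least 1 wild-type peak, 3.40 and 2.60 (chromosome 1) with equal list lengths, and 3.01 without chromosomes 6 and 13. In the alternatives chosen after seeing the data it was 3.12 without the 3 blocks and 1.49, 1.502 and 1.63 against bins with 6 or 7 peaks.

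The share of wild-type peaks in dense bins that overlapped a rescue peak was 38.8% on the other autosomes at a limit of 6 and 40.8% at 10. It was 12.6% on chromosome 1 with 200 kb bins, and 42.1% and 15.2% (chromosome 1) with merged peaks. It was 28.6%, 7.34% and 4.00% with scores of at least 50, 43.7% and 15.5% (chromosome 1) for the densest 2%, and 36.7%, 11.99% and 12.1% with equal list lengths. It was 38.2% without chromosomes 6 and 13, 35.3% where the overlap had to reach 50% of the shorter peak, and 55.5%, 20.2% and 20.5% with a gap of up to 1 kb.

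The Ezh2 ratio was 1.496 for the knockout at a limit of 6, and 1.15, 1.78 and 1.13 at 10. It was 1.17, 1.67 and 1.19 with bins shifted by 50 kb, 1.32 for library 0 with 50 kb bins, 1.72 and 1.27 (library 1 and knockout) with 200 kb bins, and 1.31, 1.81 and 1.25 with merged peaks. It was 0.910, 1.20 and 0.837 with scores of at least 50, and 0.883, 1.57 and 0.844 for the densest 2%. It was 1.09, 1.45 and 1.04 against bins with at least 1 wild-type peak, and 1.08, 1.14 and 0.926 against bins with 6 or 7.

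The share of dense bins with a peak of both wild-type Ezh2 libraries was 11.6% at a limit of 10, 6.50% with 50 kb bins, 24.0% with 200 kb bins, 6.99% with scores of at least 50 and 8.30% for the densest 2%. With either library left out, it became the share with a peak of the remaining one, 14.5% to 42.0%. No paired analysis was possible because the groups compared share fewer than 2 replicate numbers. Unknown depth limits any comparison of counts between lists.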

Other observations

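The rescue list had dense stretches of its own. Away from chromosomes 1 and 8, 2925 bins held 8 or more rescue G9a peaks, and 1739 of them had fewer than 8 in the wild type. Of all bins of these autosomes, 8.86% reached 8 wild-type peaks and 13.6% reached 8 rescue peaks. The shared 1186 bins were 62.5% of the bins dense in the wild type and 40.5% of those dense in the rescue. Without the 10 Mb blocks on chromosomes 6 and 13 where rescue peaks were in excess, a choice made after seeing the data, the shares were 61.9% and 41.0%. On chromosome 1, 9 bins reached 8 rescue peaks and 7 of these were dense in the wild type, against 17.2% of all its bins. On chromosome 8 the only such bin, 1, was dense in the wild type, against 15.2% of all its bins.

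Among the 1899 dense bins of these autosomes, the rank correlation of the wild-type with the rescue count was 0.377 (Spearman). It was 0.227 over the 340 of chromosome 1 and 0.194 over the 200 of chromosome 8. With Ezh2 it was -0.0883 for library 0, -0.0785 for library 1 and -0.0790 for the knockout on the autosomes other than 1 and 8. Bins of a chromosome share their libraries and local depth, so these are descriptions only.

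High-scoring Ezh2 peaks (100 or more) were also counted in dense bins. Ratios to the other bins of the same chromosomes were 1.37 for library 0 (326 peaks), 1.75 for library 1 (703) and 1.14 for the knockout (201; 95% interval 0.988 to 1.31, exact Poisson). Regions called in library 1 alone made up 66.9% of the 2531 Ezh2 regions of dense bins and 59.7% of the 11280 elsewhere. Regions of the knockout alone made up 10.5% and 13.3%. These differences were not tested.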
